A study of Mus musculus with 7 samples.

Results

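The 10 genes described here, Il6, Il1b, Tnf, Cxcl1, Cxcl2, Ccl2, Ccl20, Csf1, Icam1 and Ptgs2, are known targets of the transcription factor NF-kB that encode cytokines, chemokines, a growth factor, an adhesion molecule and a prostaglandin-forming enzyme. Chromatin accessibility around them was compared between Dll1+ and Dll1- mammary tumour cells by ATAC-seq, in which a transposase inserts sequencing adapters into open DNA. The peak lists of both cell populations were merged into union regions, and a region belonged to a member gene when that gene held the nearest protein-coding transcription start site (TSS) to its midpoint. This rule gave 70 of 119215 union regions for the 10 of 21951 protein-coding genes. It used position only and no accessibility value. All cells came from tumours of mice carrying both MMTV-PyMT, in which the MMTV promoter drives the polyoma middle T oncoprotein in mammary epithelium, and a Dll1-mCherry reporter on a bacterial artificial chromosome. Cells bearing CD45, CD31 or Ter119 were removed by sorting, and what remained was split by reporter signal, with mCherry+ cells forming the Dll1+ group and mCherry- cells the Dll1- group. The groups held 3 Dll1+ and 4 Dll1- samples from 4 tumours, of which 3 gave both. The age of the mice was not given in the labels, and the reporter, not the endogenous Dll1 protein, defined the groups.

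NF-kB is held in the cytoplasm by inhibitor proteins until signals such as TNF, IL-1 or microbial products cause these to be degraded, and it then binds short DNA elements, called kB sites, in promoters and enhancers. Many of its targets encode secreted proteins that recruit or feed myeloid cells. In mammary tumours, CCL2 and CSF1 are known to draw in and maintain macrophages, and CXCL1 and CXCL2 to attract neutrophils. Accessible chromatin at such a gene shows that a factor could bind there, and is not a measure of its RNA or protein.

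The kB sites that lie within the accessible region at a start site are shown first, since they tie the members to the factor they are grouped by. The NF-kB consensus was searched on both strands of all 70 regions, and 6 of the 9 members with an accessible start site held a match within that region. Each sequence below runs 5′ to 3′ on the strand of its gene, in GRCm38.p6, with the kB match in capitals.
Il6, 40 bp upstream of the start, chr5:30013070-30013079: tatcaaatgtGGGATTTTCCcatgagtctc
Cxcl1, 63 bp upstream, chr5:90891174-90891183: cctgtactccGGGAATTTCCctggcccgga
Cxcl2, 65 bp upstream, chr5:90903802-90903811: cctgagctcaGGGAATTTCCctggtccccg
Ccl20, 76 bp upstream, chr1:83116686-83116695: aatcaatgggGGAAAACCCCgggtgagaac
Csf1, 149 bp upstream, chr3:107760614-107760623: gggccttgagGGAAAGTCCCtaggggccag
Ptgs2, 331 bp upstream, chr1:150099696-150099705: ggagaggtgaGGGGATTCCCttagttagga
The Cxcl1 and Cxcl2 matches were the same 10 letters. In both genes a second match overlapped the first, shifted by 1 base, because the element reads nearly alike on both strands. Among 32851 RefSeq promoters of the same assembly, 3.90% held the consensus in the 250 bases before the start, and in this same window it was held by 5 of the 9 members with an entry (all of the above but Ptgs2).

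Because the deposited lists pool the samples of a group, each value below is a single pooled value, and no difference could be set against a spread between tumours. Fold enrichment is the reads at a peak summit plus 1 over the local background plus 1, and the added 1 lowers it more where the background is low, as in the Dll1+ list. Strength is the region's highest fold enrichment as a percentile among all rows of its own list, so 100 is the strongest. A rank difference is the Dll1+ percentile minus the Dll1- percentile, in points, and differences of at least 20 points were counted. The number of reads under a summit was solved from its fold enrichment and p-value. Across the genome the background came to 3.74 reads for Dll1+ and 7.20 for Dll1-, a ratio of 1.93, so read ratios were taken after dividing each count by its background. Over all shared regions the median ratio of Dll1+ to Dll1- was 1.18, not 1, and the ratios below are to be read against it. Their 95% intervals cover counting error only, since each list is pooled, and they take the reads as independent. A molecule can be read more than once when no molecular identifiers are used, and the intervals do not allow for this. In a pooled population, fewer cells with an open region and less opening in each cell cannot be told apart.

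Accessible chromatin was found around all 10 members, and their regions fell into shared and single-list classes in shares whose intervals included those of all regions. Of the 70 member regions, 44 (62.9%) were called in both lists, 4 (5.71%) in the Dll1+ list alone and 22 (31.4%) in the Dll1- list alone. Over all union regions these shares were 66.4%, 9.01% and 24.6%. The Wilson 95% intervals of the member shares ran from 51.1% to 73.2%, from 2.24% to 13.8% and from 21.8% to 43.0%. The Dll1+ list held 48 member regions and the Dll1- list 66, beside 89897 and 108471 of all union regions. Gene by gene, 8 members had more regions in the Dll1- list, Cxcl2 and Icam1 had equal numbers, and 0 had more in the Dll1+ list. Of the 11440 genes with at least 3 regions, the fewest of any member, 64.9% had more in the Dll1- list and 13.7% more in the Dll1+ list. Of the single-list member regions, 15.4% (6.15% to 33.5%) were Dll1+, an interval that includes the 26.8% over all regions. The members had a median of 6 regions each, compared with 3 per protein-coding gene, and 46 of the 70 regions were intergenic.

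**Figure D1:**
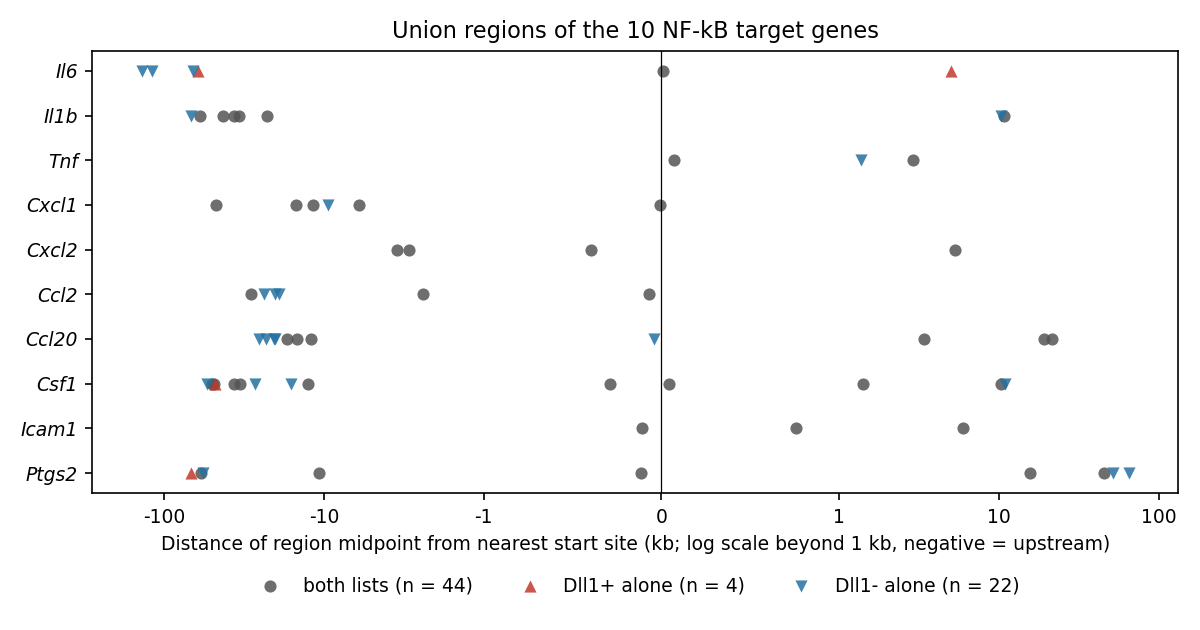
Position of the 70 union regions of the 10 genes. The x axis gives the distance of the region's midpoint from the nearest start site of the gene in kb (linear within 1 kb, logarithmic beyond, negative upstream), and each row is a gene. Grey circles are the 44 regions called in both lists, red triangles the 4 called in Dll1+ alone and blue triangles the 22 called in Dll1- alone, and all but 1 of the blue triangles lie more than 1 kb from the start site.

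Among the cytokines, Il6 encodes interleukin-6, which signals through gp130 and STAT3. Its start site (ENSMUSG00000025746.11, chr5:30013114-30019981 on the plus strand) lay in a region open in both lists. The fold enrichment there was 7.81 from 36 reads in Dll1+ and 9.76 from 79 reads in Dll1-. These values ranked at the 67.9th and 81.1st percentiles, a difference of -13.3 points, and the background-adjusted read ratio was 0.878 (0.575 to 1.32), an interval that includes 1. The upstream Il6 sequence is printed here for its known composite promoter, with the kB match and a C/EBP match (TTGCNNAA on either strand) in capitals, chr5:30012964-30013113 on the plus strand.
Il6 promoter: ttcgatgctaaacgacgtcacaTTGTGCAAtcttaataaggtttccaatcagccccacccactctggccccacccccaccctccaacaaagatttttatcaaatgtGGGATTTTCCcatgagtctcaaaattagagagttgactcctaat
An AP-1 match (TGAGTCA or TGACTCA) lay farther out in the same region, 246 bp upstream of the start. The other Il6 regions were all called in 1 list only. A region 5.0 kb downstream of the start, chr5:30018176-30018497, was called in Dll1+ alone with fold enrichment 5.70 from 26 reads, at the 51.1st percentile of its list. Its midpoint lay in the 3′ UTR of 1 of the 4 annotated Il6 transcripts and in an intron of the other 3. In the same decile of the Dll1+ list, 90.3% of regions were also called in Dll1-. A second Dll1+ region lay 61.0 kb upstream with 20 reads. The 3 Dll1- regions lay 65.6, 118.3 and 137.6 kb upstream with 26, 25 and 31 reads, none above the 34.7th percentile.

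Il1b (ENSMUSG00000027398.13, chr2:129364570-129371139, minus strand) encodes interleukin-1 beta, a cytokine that is itself an activator of NF-kB. It was the member with no accessible region at its start site in either list, although 57.9% of protein-coding genes had such a region in both lists. Its 8 regions all lay more than 10 kb away. The strongest, 36.7 kb upstream at chr2:129407571-129408035, had fold enrichment 14.4 from 132 reads in Dll1+ and 15.2 from 307 reads in Dll1-, at the 91.4th and 93.8th percentiles. A neighbouring region 42.6 kb upstream ranked 10.4 points lower in Dll1+ than in Dll1-, with 49 against 174 reads and a read ratio of 0.542 (0.387 to 0.749). A region 59.9 kb upstream went the other way, at 50 against 62 reads and a ratio of 1.55 (1.05 to 2.29).

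Tnf (ENSMUSG00000024401.14, chr17:35199381-35202007, minus strand) encodes tumour necrosis factor and had 3 regions. Its start site ranked alike, with fold enrichment 8.18 and 7.03 in Dll1+ and Dll1-, at the 70.0th and 67.7th percentiles. The reads there were 88 and 103, a ratio of 1.65 (1.22 to 2.21), beside the median of 1.18 over all shared regions, and the rank difference was 2.2 points. The local background at this site was 9.89 reads in Dll1+ and 13.8 in Dll1-, above the genome-wide level in both lists. A region 2.9 kb downstream, which held a kB match, ranked 16.1 points lower in Dll1+, while its reads of 69 and 103 gave a ratio of 1.29 (0.937 to 1.77), over local backgrounds of 14.4 and 18.8. A weak intronic region 1.4 kb downstream was called in Dll1- alone, at the 14.2nd percentile from 51 reads.

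The chemokine genes Cxcl1 and Cxcl2 encode ligands of the neutrophil receptor CXCR2 and lie 12.6 kb apart on chromosome 5. Cxcl1 (ENSMUSG00000029380.11, chr5:90891241-90893115) had 5 shared regions and 1 in Dll1- alone. Its start site had fold enrichment 10.7 and 10.2 in Dll1+ and Dll1-, a rank difference of -1.3 points and a read ratio of 1.19 (0.919 to 1.55). Its most accessible region lay 47.1 kb upstream, at the 98.4th and 96.2nd percentiles. Another, 14.9 kb upstream with a kB match, ranked at the 95.5th and 93.4th percentiles. The read ratios of these regions, 1.45 (1.19 to 1.77) and 1.57 (1.32 to 1.85), had intervals above the all-region median of 1.18, and their ranks, near the top of both lists, differed by no more than 2.2 points.

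Cxcl2 (ENSMUSG00000058427.10, chr5:90903871-90905938) ranked lower in Dll1+ at all 4 of its regions. The start-site region, chr5:90902955-90903990, had fold enrichment 4.99 from 63 reads in Dll1+ and 6.71 from 155 reads in Dll1-. It ranked at the 42.9th and 65.7th percentiles, 22.8 points lower in Dll1+. This was the only member start site past 20 points, and it was at -18.6 points, under the threshold, with equal numbers of rows. Its read ratio of 0.783 (0.575 to 1.06) had an interval that includes 1 and lies below the all-region median of 1.18. A region 2.9 kb upstream fell from the 49.6th percentile in Dll1- to the 18.0th in Dll1+, with 115 and 41 reads and a ratio of 0.687 (0.469 to 0.989). The sequence at its strongest summit is shown for its AP-1 match, in capitals, chr5:90900857-90901006 on the plus strand.
Cxcl2, 2.9 kb upstream: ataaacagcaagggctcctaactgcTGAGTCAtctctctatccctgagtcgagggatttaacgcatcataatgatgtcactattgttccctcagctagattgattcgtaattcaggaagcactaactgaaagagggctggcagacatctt
The strongest Cxcl2 region lay 5.3 kb downstream and differed by 5.8 points, at the 89.5th percentile in Dll1+ and the 95.4th in Dll1-. The adjacent Cxcl1 and Cxcl2 start sites thus carried the same kB letters at almost the same distance, and differed by -1.3 and -22.8 points.

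Ccl2 (ENSMUSG00000035385.5, chr11:82035571-82037453, plus strand) encodes a chemokine that attracts monocytes through the receptor CCR2, and is known for an NF-kB-bound distal enhancer upstream of its promoter. Its start site was the strongest among the members in both lists. Fold enrichment was 15.7 from 125 reads in Dll1+ and 13.2 from 235 reads in Dll1-, at the 93.6th and 90.4th percentiles, with a read ratio of 1.02 (0.818 to 1.28). Away from the start site all 5 Ccl2 regions were weaker in or absent from the Dll1+ list. The region 2.4 kb upstream, chr11:82032912-82033407 in an intron of the annotated gene Gm17268, had fold enrichment 3.27 from 24 reads in Dll1+ and 4.92 from 80 reads in Dll1-. It ranked 31.9 points lower in Dll1+, with a read ratio of 0.578 (0.350 to 0.922). The region 28.5 kb upstream, in an intron of Gm31522, was at 17 and 62 reads, ranked 39.7 points lower in Dll1+ and had a ratio of 0.528 (0.289 to 0.915). The summit sequences of these 2 regions are shown with the kB match of the nearer and the C/EBP match of the farther in capitals, at chr11:82033095-82033244 and chr11:82006928-82007077 on the plus strand.
Ccl2, 2.4 kb upstream: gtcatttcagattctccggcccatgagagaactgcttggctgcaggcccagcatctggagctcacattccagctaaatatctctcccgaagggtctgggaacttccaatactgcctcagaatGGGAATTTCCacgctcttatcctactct
Ccl2, 28.5 kb upstream: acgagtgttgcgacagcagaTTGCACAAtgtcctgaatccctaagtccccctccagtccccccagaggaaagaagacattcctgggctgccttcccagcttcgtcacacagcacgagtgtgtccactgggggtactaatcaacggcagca
A kB match also lay within 100 bp of the summit of the farther region, 28652 bp upstream and outside the sequence shown. The kB match near the distal enhancer region's summit lay 2350 bp upstream of the Ccl2 start. The remaining 3 Ccl2 regions, 19.0, 20.3 and 23.6 kb upstream and all in introns of Gm31522, were called in Dll1- alone from 35, 35 and 49 reads.

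Ccl20 (ENSMUSG00000026166.14, chr1:83116766-83119167, plus strand) encodes the ligand of CCR6, which guides dendritic cells, T helper cells and B cells. It was the member with most regions in Dll1- alone, 5, and had 0 in Dll1+ alone. All 6 of its shared regions ranked lower in Dll1+, by 3.2 to 41.4 points. Its start site, chr1:83116610-83116843, was called only in Dll1- and weakly, with fold enrichment 2.81 from 22 reads at the 14.8th percentile. Of all protein-coding genes, 3.84% had a start-site region in the Dll1- list alone. At the Dll1+ depth 22 reads correspond to 11.4. Among Dll1+ rows at the genome-wide background, the fewest reads were 9 and the 5th percentile was 13. Why the site was absent from the Dll1+ list was not tested.

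The largest rank difference of any member was at the Ccl20 region 3.4 kb downstream of the start, chr1:83119884-83120526. Fold enrichment was 5.07 from 23 reads in Dll1+ and 11.1 from 90 reads in Dll1-, at the 44.0th and 85.4th percentiles. It ranked 41.4 points lower in Dll1+ with a read ratio of 0.492 (0.297 to 0.785). The background at this region was at the genome-wide level in both lists. Its summit sequence is shown with an AP-1 match in capitals, chr1:83120009-83120158 on the plus strand.
Ccl20, 3.4 kb downstream: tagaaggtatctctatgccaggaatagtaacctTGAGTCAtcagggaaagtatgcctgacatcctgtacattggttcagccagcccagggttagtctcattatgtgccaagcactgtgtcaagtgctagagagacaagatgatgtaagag
A cluster of Ccl20 regions lay 12.0 to 25.3 kb upstream. The 3 nearer ones were shared, and ranked 16.3, 12.6 and 19.97 points lower in Dll1+. The 4 farther ones, 20.2 to 25.3 kb upstream, were called in Dll1- alone from 35 to 44 reads. The strongest Ccl20 region, 21.4 kb downstream, stood near the top of both lists and differed by 3.2 points, with 85 and 211 reads and a ratio of 0.776 (0.596 to 1.003), below the all-region median of 1.18. The ratios of the 3 shared upstream regions were 0.938, 0.992 and 0.825, with intervals that include 1.18.

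Csf1 (ENSMUSG00000014599.10, chr3:107741048-107760469, minus strand) encodes macrophage colony-stimulating factor, the main growth factor of macrophages. It had most regions, 14, of which 9 were shared, 1 was in Dll1+ alone and 4 were in Dll1- alone. The main start site had fold enrichment 9.57 and 9.80 in Dll1+ and Dll1-, a difference of -4.3 points and a read ratio of 1.13 (0.883 to 1.45). A region at the start of a shorter Csf1 transcript, chr3:107750610-107751922, was as open, at the 77.4th and 75.8th percentiles. The most accessible shared regions, 12.6 and 36.5 kb upstream, differed by 8.4 and -4.6 points, with 134 and 243 reads and 121 and 259 reads. Past 20 points were 3 regions, all lower in Dll1+. The region 10.3 kb downstream of the start of the shorter transcript had 13 against 48 reads, 35.3 points and a ratio of 0.522 (0.259 to 0.978). The regions 49.0 and 50.2 kb upstream had 17 against 40 reads and 23 against 60 reads, with intervals that include 1.

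The strongest member region that a list lacked was at Csf1. It lay 16.0 kb upstream, chr3:107776202-107776769, with fold enrichment 7.45 from 165 Dll1- reads over a local background of 21.3, at the 70.5th percentile of the Dll1- list. Of Dll1- regions in that decile, 92.6% were also called in Dll1+. At the Dll1+ depth its 165 reads correspond to 85.7. Its summit sequence, chr3:107776388-107776537 on the plus strand, held no complete match to the 3 motifs, and an AP-1 match lay across its left edge, within 100 bp of the summit.
Csf1, 16.0 kb upstream: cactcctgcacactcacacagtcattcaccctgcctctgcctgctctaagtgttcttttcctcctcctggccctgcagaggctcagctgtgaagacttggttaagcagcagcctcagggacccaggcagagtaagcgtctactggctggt
The single Csf1 region in Dll1+ alone lay 48.0 kb upstream with 26 reads, at the 33.2nd percentile.

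Icam1 (ENSMUSG00000037405.8, chr9:21015985-21028817, plus strand) encodes the adhesion molecule that binds leukocyte integrins. It had 3 regions, all shared. Its start site was weakly accessible, with fold enrichment 4.43 from 20 reads in Dll1+ and 4.53 from 49 reads in Dll1-, at the 35.6th and 44.5th percentiles. A region 0.8 kb into the gene was stronger in both lists, at the 61.1st and 63.3rd percentiles, and held a kB match 776 bp from the start. Another intronic region 6.0 kb downstream held a pair of kB matches. The rank differences of -8.9, -2.2 and -7.4 points all pointed to Dll1-. That of the start site was -18.5 when ranked by p-value and -2.2 with equal numbers of rows. The 3 read ratios, 0.786, 0.893 and 1.08, had intervals that include 1.

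Ptgs2 (ENSMUSG00000032487.8, chr1:150100031-150108227, plus strand) encodes cyclooxygenase-2, the inducible enzyme of prostaglandin synthesis. It differed in direction from most members. Its start site, chr1:150099371-150100457, which also starts the antisense gene Ptgs2os, had fold enrichment 13.9 from 85 reads in Dll1+ and 10.1 from 92 reads in Dll1-. It ranked 8.0 points higher in Dll1+, with a read ratio of 1.78 (1.31 to 2.42). The region 10.8 kb upstream, chr1:150088946-150089535 in an intron of Ptgs2os, was the only member region past 20 points in the Dll1+ direction. There the fold enrichment was 15.1 from 71 reads in Dll1+ and 6.22 from 50 reads in Dll1-, so it held more reads in the shallower list. It stood at the 92.6th and 61.9th percentiles, 30.6 points apart, with a read ratio of 2.73 (1.88 to 4.01), the highest among the shared member regions. Its summit sequence, chr1:150089166-150089315 on the plus strand, held none of the 3 motifs.
Ptgs2, 10.8 kb upstream: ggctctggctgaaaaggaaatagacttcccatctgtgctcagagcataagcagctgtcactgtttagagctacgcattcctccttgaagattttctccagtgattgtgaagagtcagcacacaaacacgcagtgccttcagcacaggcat
The other shared Ptgs2 regions, 58.2 kb upstream and 15.6 and 45.2 kb downstream, differed by 6.8, -5.5 and -8.0 points. The last of these lay at the start of the non-coding gene Gm9687. At the same time, Ptgs2 had 3 regions in Dll1- alone and 1 in Dll1+ alone. Of the former, those 56.7 kb upstream and 51.6 kb downstream ranked at the 56.6th and 64.7th percentiles from 45 and 53 reads, and the latter lay 68.0 kb upstream with 19 reads.

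Start sites were compared over the members. Of the 10 members, 8 had a start-site region in both lists, Ccl20 had it in Dll1- alone and Il1b in neither. The 8 shared start sites differed by a median of -2.8 points, beside -1.7 over all genes with a shared start site. Tnf, Ccl2 and Ptgs2 ranked higher in Dll1+, and Il6, Cxcl1, Cxcl2, Csf1 and Icam1 ranked higher in Dll1-. With rows at or above the median fold enrichment only, Il6 was at -26.6 points and Ptgs2 at 16.0. The small differences turned sign under another setting at Ccl2 (-1.6 points when ranked by p-value), Tnf (-0.26 when ranked among regions) and Cxcl1 (0.79 with equal numbers of rows). In both lists Ccl2 was the highest start site and, among the shared ones, Icam1 was the lowest.

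**Figure D2:**
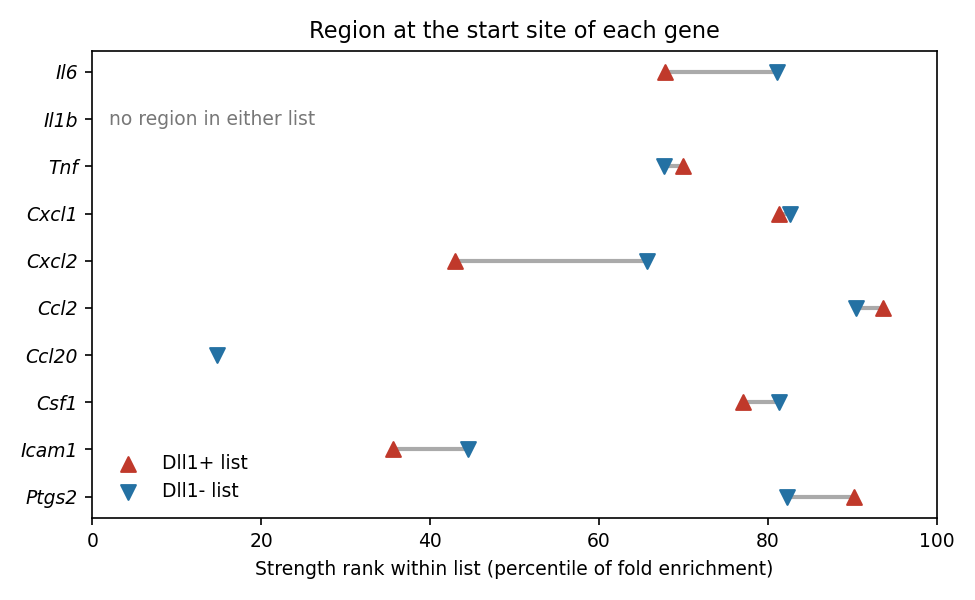
Strength of the region at each gene's start site. The x axis is the percentile of fold enrichment within the list, red triangles are the Dll1+ list and blue triangles the Dll1- list, joined by a grey line where both called the region. Cxcl2 shows the longest line (42.9 to 65.7), Ccl20 has a Dll1- value only, and Il1b has none.

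Across all 44 shared member regions, 32 ranked higher in Dll1- and 12 in Dll1+. The median difference was -5.7 points, beside -1.7 over all 79153 shared regions, of which 59.0% ranked higher in Dll1-. The member median was -3.1 points with equal numbers of rows in the lists and -9.0 when regions were ranked in place of rows. A difference of at least 20 points was reached by 8 member regions (18.2%) in the Dll1- direction, compared with 11.1% of all shared regions, and by 1 (2.27%) in the Dll1+ direction, compared with 6.39%. The 8 regions were divided among Csf1 (3), Cxcl2 (2), Ccl2 (2) and Ccl20 (1), and 7 of them lay more than 1 kb from a start site. Over the 34 shared member regions more than 1 kb away, the median difference was -7.7 points, beside -1.6 over all such regions. Just inside the threshold was the Cxcl2 start site at 22.8 points and just outside it the Ccl20 region 16.9 kb upstream at 19.97 points. By role, the chemokine genes had a median of -11.7 points over 18 shared regions, the cytokine genes -10.4 over 9, Csf1 -4.3 over 9, Icam1 -7.4 over 3 and Ptgs2 6.8 over 5.

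**Figure D3:**
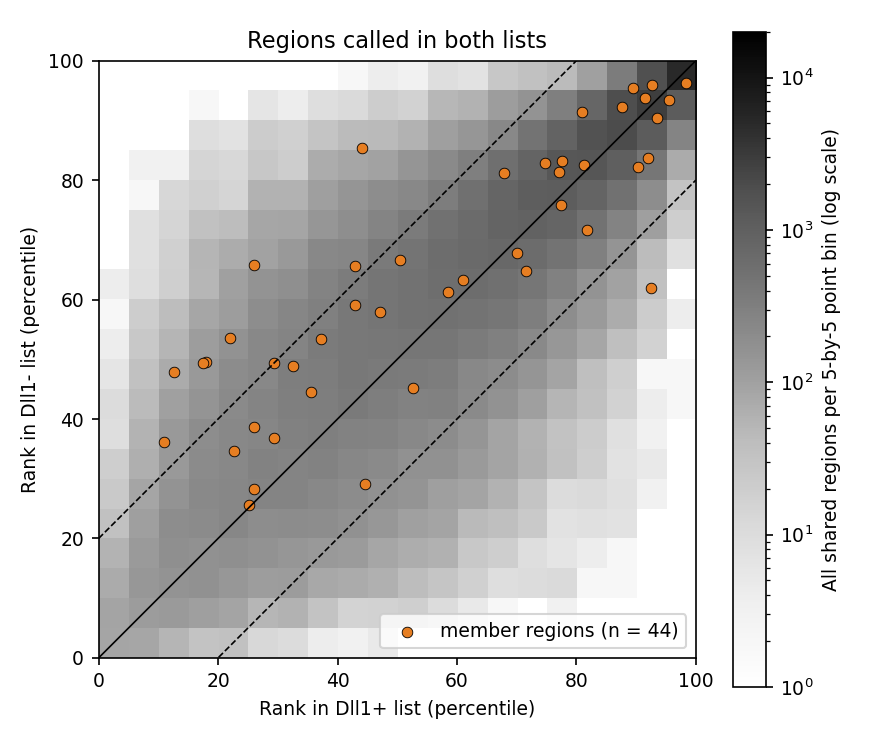
Strength rank of regions called in both lists, in Dll1+ (x axis, percentile) against Dll1- (y axis, percentile). Orange points are the 44 member regions, grey shading counts all shared regions per bin on a log scale, the solid line is equal rank and the dashed lines mark 20 points. Above the upper dashed line lie 8 member points and below the lower one lies 1, the Ptgs2 region at 92.6 and 61.9.

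By read counts, the members also lay lower in Dll1+ than shared regions at large. The median background-adjusted ratio of Dll1+ to Dll1- reads was 0.993 over the 44 shared member regions, beside 1.18 over all shared regions. The ratio was below 1 in 23 of the 44 (52.3%), compared with 30.2% of all shared regions, and below the all-region median of 1.18 in 32. The interval lay wholly below 1 in 6 regions, beside 6.96% of all shared regions (1 each of Il1b, Cxcl2, Ccl20 and Csf1, and 2 of Ccl2) and wholly above 1 in 6, beside 31.5% (1 each of Il1b and Tnf, and 2 each of Cxcl1 and Ptgs2). Against the all-region median of 1.18, the interval lay wholly below in 11 member regions and wholly above in 5. The same shares over all shared regions were not computed, so these 2 counts have no reference. For Il6 and Icam1 every interval included both 1 and 1.18.

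**Figure D4:**
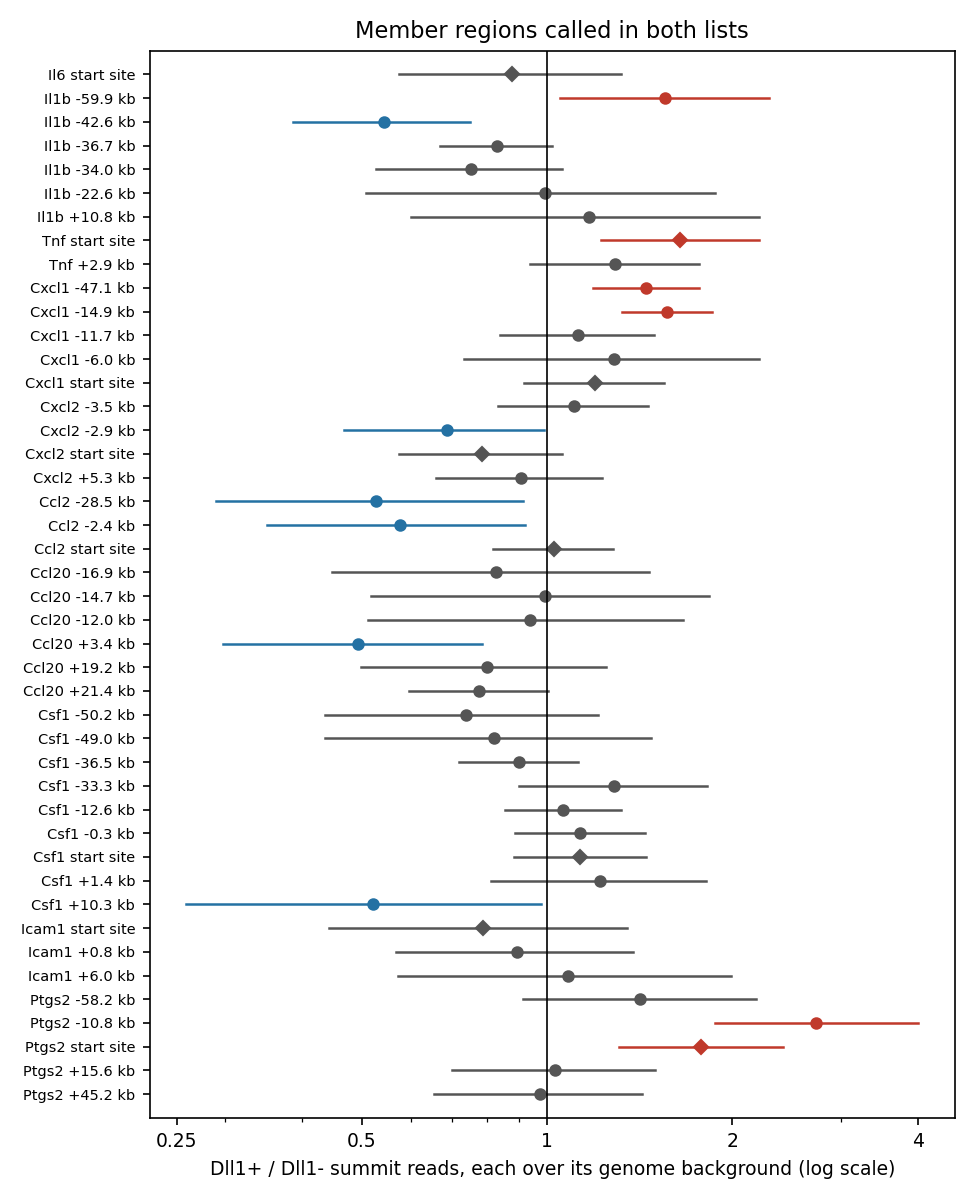
Ratio of Dll1+ to Dll1- summit reads, each divided by its genome-wide background, for the 44 shared member regions (x axis, log scale). Points are the ratios, diamonds mark start-site regions and bars are exact 95% intervals for counting error. Red intervals lie above 1 and blue ones below 1, 6 of each, beside 31.5% and 6.96% of all shared regions. The vertical line is at 1, not at the median of 1.18 over all shared regions. The Ptgs2 region 10.8 kb upstream is highest at 2.73.

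The regions that a single list held were mostly weak. The 22 member regions in Dll1- alone had a median percentile of 38.5, beside 32.6 for all regions in Dll1- alone. Of the 22, 4 reached the 50th percentile (Ccl20 22.9 kb upstream at 55.0, Csf1 16.0 kb upstream, and the 2 Ptgs2 regions given above). The share of all regions in Dll1- alone that reached it was not computed. The 22 regions were spread over 8 of the 10 genes, and only Cxcl2 and Icam1 had none. The share of all genes with such a region was not computed, and 24.6% of all regions were in Dll1- alone. The 4 regions in Dll1+ alone belonged to Il6 (2), Csf1 and Ptgs2, with a median percentile of 34.4, beside 29.4. Leaving out Ccl20, the counts were 38 shared, 4 in Dll1+ alone and 17 in Dll1- alone, and leaving out Csf1 they were 35, 3 and 18.

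Sequence within 100 bp of each region's strongest summit was compared with all union regions. The NF-kB consensus was found at 9 of 70 member regions (12.9%), compared with 3.02% of all regions, which describes genes that were grouped as targets of this factor. An AP-1 match lay in 26 (37.1%), compared with 18.1%, and a C/EBP match in 10 (14.3%), compared with 11.4%. Of the 22 regions in Dll1- alone, 10 (45.5%) held AP-1 and 1 held the NF-kB consensus, and these shares over all regions in Dll1- alone were 30.4% and 3.73%. Of the 44 shared regions, 8 (18.2%) held the NF-kB consensus and 16 (36.4%) held AP-1, beside 2.89% and 15.4% of all shared regions. Of the 4 regions in Dll1+ alone, 0 held either motif within this window, and 4.41% of all regions in Dll1+ alone held AP-1.

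A wider list of 35 further NF-kB target genes had 171 regions, of which 128 (74.9%) were shared, 7 (4.09%) were in Dll1+ alone and 36 (21.1%) in Dll1- alone. The median rank difference of its shared regions was -2.1 points, with 16 (12.5%) past 20 points in the Dll1- direction and 7 (5.47%) in the Dll1+ direction, close to the 11.1% and 6.39% of all shared regions. Start sites of 22 of these genes were in both lists. Of these, 5 were more than 20 points lower in Dll1+ and 0 were higher, beside 3.54% and 1.02% of all shared start sites. They were the chemokine genes Ccl7 (-36.1 points) and Cxcl10 (-34.5), the adhesion gene Madcam1 (-29.6), Lcn2, which encodes the iron-scavenging protein lipocalin-2 (-24.3), and Il23a, a subunit of interleukin-23 (-21.8). In Dll1- alone were the start sites of 2 of the 35 genes, beside 3.84% of all protein-coding genes. These were Vcam1, another leukocyte adhesion molecule, and the TNF receptor family member Cd40.

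The sorted identity was checked on marker genes. The luminal epithelial genes had a shared start-site region in 9 of 10 cases, Krt8 and Epcam among them, and the basal genes in 5 of 8 cases (Acta2, Krt17, Myh11, Mylk and Oxtr), while the start sites of the basal genes Krt5, Krt14 and Trp63 were in neither list. Of 10 immune genes, those of Cd68 and Spi1 were in both lists, and the defining Ptprc, Csf1r, Itgam, Cd3e and Lyz2 were in neither. Of 8 endothelial genes, Erg and Kdr were in both and Pecam1 and Cdh5 in neither. Of 10 fibroblast genes, Col1a1 was in both lists, Col1a2, Pdgfra, Pdgfrb and Postn were in Dll1- alone, and 0 were in Dll1+ alone. Over all regions of the fibroblast genes, 50 of 105 (47.6%, 38.3% to 57.1%) were in Dll1- alone and 2 in Dll1+ alone, beside 24.6% and 9.01% of all regions. The shared regions had a median rank difference of 0.70 points and a median ratio of 1.26 for the fibroblast genes, and of -3.8 points and 1.03 for the immune genes, beside -5.7 points and 0.993 for the members. In Dll1- alone and Dll1+ alone, the immune genes had 16 and 3 of 43 regions (37.2% in Dll1- alone, 24.4% to 52.1%), the endothelial genes 26 and 6 of 89, the basal genes 25 and 10 of 86 and the luminal genes 29 and 26 of 215. The sort did not use a fibroblast antigen. The part of other cell types in the member regions in Dll1- alone was not tested.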

How the data were processed

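ATAC-seq was measured in 7 samples of Dll1+ or Dll1- MMTV-PyMT tumour cells. Using the ENCODE ATAC-seq pipeline with the replicates of a group combined, the authors deposited 1 optimal peak list per group, with 132872 Dll1+ rows and 148923 Dll1- rows. The deposited fold enrichment is the ratio of summit reads plus 1 to local background plus 1, a form under which the rows could be solved, the deposited −log10 p-value is that of the authors' peak caller, and the deposited summit offset gave the summit position. The aligner, the caller and the thresholds are not given in the sources used here. The submitters' processing notes name GRCm38 (mm10), and 0 rows ran past a chromosome end.

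Rows of both lists were merged where they overlapped or touched, and midpoints were assigned to the nearest protein-coding start site of the GENCODE annotation of GRCm38. A start-site region overlapped the gene's start or lay within 1000 bp of it. Reads were solved from fold enrichment and p-value under a Poisson model, for 132872 Dll1+ and 148922 Dll1- rows. The fewest reads in a row at the genome-wide background were 9 (Dll1+) and 14 (Dll1-). Shares have Wilson 95% intervals and read ratios exact binomial (Clopper-Pearson) ones, for counting error only. Promoter sequences and starts were from RefSeq (GRCm38.p6), which matched 9 members. Ccl2 had no entry. Consensus letters were searched on both strands. Named were, for each member, the start-site region and the strongest region over 1000 bp away, single-list regions at or above the 50th percentile and shared regions at least 20 points apart. Regions outside this rule are given as counts or were chosen after their values were seen. The members and lists were chosen with earlier results of these data known. With 1 pooled list per group no test was possible and no p-value was computed. Analyses used Python 3.11.15, numpy 2.4.6, pandas 2.3.3, scipy 1.17.1 and statsmodels 0.14.6.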

Additional observations from a re-analysis of the deposited data

How the results depend on the processing

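No paired analysis was possible because each deposited list pools the samples of a group, and for the same reason no replicate could be left out. The settings tried were a single start per gene, regions within 50 kb, rows at or above the median fold enrichment of their list, equal numbers of rows, Dll1- reads scaled to the Dll1+ background, summits within 100 bp, ranking by −log10 p-value, ranking among regions and a 10-point difference. Of 52 recomputed values, 43 stayed within 1.5 times (counts), within the Wilson interval (share) or within 5 points (rank differences). Within 50 kb, Dll1+ alone had 2 regions and Dll1- alone 14. With rows at or above the median fold enrichment, 23 regions were shared, 2 were in Dll1+ alone and 11 in Dll1- alone, and 3 were past 20 points in the Dll1- direction, where fewer rows enter by construction. With equal numbers of rows, 2 regions were past 20 points in the Dll1+ direction. At 10 points, 2 passed in the Dll1+ direction and 18 in the Dll1- direction. More member regions were in Dll1- alone than in Dll1+ alone under all 6 settings for list counts, and more were past the threshold in the Dll1- direction under all 8 for ranks. Of 39 values for single start sites, 34 moved by no more than 5 points. Il6 reached -26.6 points with rows at or above the median, and Ptgs2 16.0, since ranking only the upper part of each list stretches the difference of a region above the median in both. Icam1, whose start-site region dropped below that limit, was at -4.5 points (the neighbouring region), and -18.5 when ranked by p-value. Cxcl2 reached -18.6 points, under 20, with equal numbers of rows, and the cause was not tested. The median over shared regions ranged from -9.0 (ranking among regions) to -3.1 points (equal numbers of rows). Scaling the Dll1- list to the Dll1+ depth left 22 of 22 Dll1- alone and 44 of 44 shared regions in their class (the 4 in Dll1+ alone could not change), but it could not recreate the authors' selection of optimal peaks. A fold enrichment near the lowest that a list holds limits which weak regions the shallower Dll1+ list could show.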

Other observations

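Genes that neighbour the members in their clusters were read in the same way. Lta and Ltb, which flank Tnf and encode lymphotoxins, had 3 regions, all shared, with a median rank difference of 1.3 points. Their median read ratio was 2.25, beside 1.18 over all shared regions. The Cxcl genes beside Cxcl1 and Cxcl2 (Cxcl3, Cxcl5, Ppbp, Pf4 and Cxcl15) had 8 regions, 7 shared and 1 in Dll1- alone. Their median rank difference was -5.2 points and their median read ratio 1.26. The Ccl genes beside Ccl2 (Ccl7, Ccl11, Ccl12, Ccl8 and Ccl1) had 13 regions, 8 shared and 5 in Dll1- alone. Here the median rank difference was -4.2 points and the median read ratio 1.11. Neither the Cxcl nor the Ccl neighbours had a region in Dll1+ alone. Over all union regions, 9.01% were in Dll1+ alone and 24.6% in Dll1- alone. The start site of Csf3, which encodes granulocyte colony-stimulating factor, ranked 17.0 points higher in Dll1+, at fold enrichment 8.57 against 5.48 in Dll1-. It was chosen after its values were seen.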
